A study of Mus musculus with 8 samples.

Results

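The 10 genes followed here encode neuropeptides of sensory neurons and were measured in dorsal root ganglia of mice with a disrupted Tmem184b gene and of wild-type mice. They are Nppb, Sst, Nts, Tac1, Calca, Calcb, Adcyap1, Gal, Npy and Nmb, taken by gene name from the deposited expression table, which holds 40800 gene identifiers. All 10 were found. Dorsal root ganglia, which flank the spinal cord and house the cell bodies of sensory neurons, came from 4 wild-type mice labelled C57BL/6 and from 4 Tmem184b gene trap homozygotes on a C57BL/6 background. All mice were 6 months old, and neither group carried any other allele or treatment named in the labels. Total RNA of the adult ganglia was sequenced, with 1 library per mouse. A gene trap captures splicing and cuts a transcript short. A homozygous trap is carried by every cell of the animal, so neurons, glia and the tissues that the neurons innervate all carry the disruption. The labels give no sex, litter or batch. Samples are named by genotype and labelled number, wild types 1, 3, 4 and 8 and mutants 1, 2, 3 and 4.

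Neuropeptides are cut from larger precursor proteins inside dense-core granules and are released from both the central and the peripheral ends of sensory neurons, where they act on G protein-coupled or guanylyl cyclase receptors. Tac1 and Calca mark the peptidergic nociceptors, which sense painful heat and chemicals and cause vessels to dilate and leak in the skin. Nppb, Sst and Nts mark a small class of itch neurons known as NP3, in which Nppb serves as a transmitter to the spinal cord. Gal and Npy are known for their induction after nerve injury.

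Transcripts of Sst and Nppb fell to a few percent of their wild-type level in the mutant ganglia, and no member was called higher. Calcb fell to 80.3% of its wild-type level, a call near the threshold that held in 12 of 20 alternative settings. Of the 10 genes, 9 were tested, and 3 of them passed an adjusted p under 0.05 (limma, Benjamini-Hochberg adjustment over 15030 tested genes). Over all tested genes 5.46% passed, 2.64% lower and 2.81% higher in the mutant. The remaining 6 tested members did not pass, and Npy had too few reads to be tested. The same 3 members that passed had groups that did not overlap. Over all tested genes 12.4% had such groups, and 4.92% had them with the mutants lower. Nppb reached the tested set through the 4 wild types alone, and Sst mainly so, with 1 mutant above the filter's log2 CPM of 0. Groups apart were thus fixed in advance for a tested Nppb and nearly so for Sst, and these counts are a description. The median log2 difference, mutant minus wild type, was -0.16 over the 10 members and 0.066 over all tested genes.

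Promoter sequence is shown for the 3 NP3 peptide genes, because their transcripts had the 3 most negative differences among the members, and a shared coding stretch is shown for Calca and Calcb, because their transcripts differed in response although the genes are close copies. The promoter sequences are from RefSeq on GRCm38.p6, printed 5′ to 3′ along the gene's own strand. The 3 long stretches end just before the earlier of the annotated transcription starts, and the 30-base windows lie between that start and the later RefSeq start. Capitals mark matches to a cyclic AMP response element (TGACGTCA), its half-site (TGACG, which the full element contains), an AP-1 element (TGANTCA) or a TATA box (TATAAA), searched on both strands (CGTCA is the half-site read on the other strand) in the 250 bases before the RefSeq start.
Nppb, chr4:147985650-147985787, plus strand: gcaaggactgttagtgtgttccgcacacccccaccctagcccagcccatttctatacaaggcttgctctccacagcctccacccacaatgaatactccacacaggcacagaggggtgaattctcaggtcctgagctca
Nppb, chr4:147985857-147985886, plus strand: actcagccccagTATAAAaggcagaggcac
Sst, chr16:23890959-23891094, minus strand: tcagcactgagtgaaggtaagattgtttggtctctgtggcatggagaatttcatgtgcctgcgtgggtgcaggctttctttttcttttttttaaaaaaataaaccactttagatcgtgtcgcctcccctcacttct
Sst, chr16:23890874-23890903, minus strand: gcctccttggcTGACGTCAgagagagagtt
Nts, chr10:102490487-102490668, minus strand: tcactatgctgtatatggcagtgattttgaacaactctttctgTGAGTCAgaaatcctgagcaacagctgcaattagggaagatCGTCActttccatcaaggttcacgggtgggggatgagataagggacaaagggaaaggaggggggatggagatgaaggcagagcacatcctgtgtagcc

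The full cyclic AMP response element began at position -48 from the RefSeq start of Sst, and stood in no other member's window. It was found in 1.55% of 32851 windows of that length across all promoters. A half-site was found in 5 of the 9 members with a window (Adcyap1, Calca, Nts, Sst and Tac1) and in 17.8% of all windows. The Nts window held an AP-1 element at -207 and a half-site on the other strand at -166. An AP-1 element was found in 6.75% of all windows. A TATA box stood at -31 in Nppb and at -58 in Adcyap1, and in 12.4% of all windows. Each match describes letters in a window and nothing more, and no searched element was shared by the windows of Nppb and Sst. Calcb had no entry in the promoter table.

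Nppb (ENSMUSG00000029019; GRCm38 chromosome 4, 147985788 to 147987205, plus strand) encodes brain natriuretic peptide, which itch neurons release onto spinal neurons that carry the receptor Npr1. The wild types held 13, 22, 27 and 40 reads, or 2.06, 2.76, 4.0 and 5.05 CPM (reads scaled to the library total), in wild types 1, 3, 4 and 8. The mutants held 0, 1, 0 and 0 reads, so that the single Nppb read of the whole group came from mutant 2, at 0.162 CPM. The lowest wild type therefore lay far above the highest mutant. Wild types averaged 3.47 ± 1.33 CPM and mutants 0.040 ± 0.081 CPM (SD, n = 4). On the moderated log2 scale, which understates differences of genes with few reads, the difference was -3.47 (SE 0.338, 95% interval -4.19 to -2.75; limma adjusted p = 5.21e-05). Summed over the libraries, 102 reads stood against 1, a ratio scaled to library totals of 92.9 with an exact binomial interval of 16.3 to 3704 that covers counting error only. Nppb passed the filter on low values through the wild types alone, all 4 of which were above a log2 CPM of 0 against 0 mutants, so a tested Nppb had to differ. It was called in all 20 alternatives, with differences of -5.09 (a weighted fit of the reads) to -2.06 (1 CPM added before the logarithm). All but the fit with no filter (limma adjusted p = 1.24e-05) kept this filter or a stricter one, so those calls add little.

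Sst (ENSMUSG00000004366; chromosome 16, 23889573 to 23890958, minus strand) encodes somatostatin, an inhibitory peptide that in mouse ganglia is largely a product of the NP3 class. Wild types 1, 3, 4 and 8 held 7.46, 6.39, 13.8 and 15.7 CPM, from 47 to 124 reads. Mutants 1 to 4 held 0.149, 0.485, 0.154 and 0.715 CPM, from 1 to 5 reads. The groups lay far apart, and the spread within each was wide on a relative scale, with a coefficient of variation of 42.4% in wild type and 73.3% in the mutant. Wild types averaged 10.8 ± 4.59 CPM and mutants 0.376 ± 0.275 CPM (SD, n = 4), which left 3.47% of the wild-type level. The log2 difference was -4.06 (SE 0.341, 95% interval -4.79 to -3.33; limma adjusted p = 1.41e-05). Which of Sst and Nppb fell further depended on the scale, since the ratio of reads was larger for Nppb. In reads, 315 against 10 gave a ratio of 28.7 (exact binomial interval 15.4 to 60.4, counting error only). Sst, too, passed the filter mainly through the wild types, with 1 mutant above 0. It was called in all 20 alternatives, with a limma adjusted p of at most 0.00573, and the limit given for those of Nppb holds here as well. In a bulk library, fewer cells of a type and less RNA per cell cannot be told apart, here and for every member.

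Among the wild types, Nppb and Sst had their higher values in the same samples, 4 and 8, and their lower values in wild types 1 and 3. Over the 8 samples the Pearson r of their log2 CPM was 0.982, most of which is the gap between the groups. The r of the deviations from the group means was 0.678, and it was not particular to this pair. The Sst deviations had an r of 0.749 with Calcb, 0.705 with Tac1, 0.651 with Adcyap1, 0.632 with Nmb and 0.611 with Calca. With Nts, the other NP3 peptide, the r of the deviations was 0.223 for Sst and 0.0345 for Nppb. By the rule of the highest r among 13142 genes, the genes most like Nppb were Il31ra (r 0.987), Rgs7 (0.982) and Sst. Those most like Sst were Cysltr2 (0.988), Tmem184b itself (0.974) and Il31ra (0.971). Nppb was not eligible there, because its mean log2 CPM was under 1. Its r with Sst, 0.982, was above those of Tmem184b and Il31ra. Il31ra is the receptor for an itch-inducing cytokine and Cysltr2 a leukotriene receptor, both markers of the NP3 class, and Rgs7 is a regulator of G protein signalling. In Rgs7 the mutants differed by -0.39 on the log2 scale (limma adjusted p = 0.00616). The r of the deviations from the group means with Sst was 0.823 for Cysltr2, 0.454 for Tmem184b and 0.398 for Il31ra. With Nppb it was 0.668 for Il31ra and 0.680 for Rgs7. These likenesses are descriptions over 8 samples that share a design of 2 groups. The other 5 NP3 markers listed, Il31ra, Osmr, Cysltr2, Htr1f and Jak1, were all called lower in the mutant, where 2.64% of all tested genes were. Their log2 differences were -3.28, -1.40, -2.32, -1.18 and -0.31, with limma adjusted p-values of 1.04e-07 to 0.00339. The list was chosen with earlier results of these data known, so this count is a description. Jak1 alone lost its call under 1 of 20 alternatives, the fit without a mean-variance trend (adjusted p 0.0654). Summed, they held 653 to 696 CPM in the wild types and 455 to 497 CPM in the mutants, of which Jak1, the least changed of them, made up 531 to 557 and 420 to 460 CPM. The levels of these markers moved with those of the peptides, and their part in the falls of Nppb and Sst was not tested.

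Nts (ENSMUSG00000019890; chromosome 10, 102481756 to 102490486, minus strand) encodes neurotensin and neuromedin N and is the other peptide of the NP3 class. Wild types 1, 3, 4 and 8 held 4.13, 2.13, 2.96 and 3.79 CPM, and mutants 1 to 4 held 1.64, 1.94, 2.31 and 1.86 CPM. The groups overlapped, since mutant 3 was above wild type 3. The means were 3.25 ± 0.894 and 1.94 ± 0.278 CPM (SD, n = 4), from 93 and 51 reads in all. The log2 difference of -0.64 (SE 0.237, 95% interval -1.15 to -0.13) did not pass the adjustment over all genes (limma adjusted p = 0.132), nor under any of the 20 alternatives (0.0599 to 0.337). At 11 to 30 reads per library, the interval excludes a fall as large as that of Sst or Nppb.

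**Figure D1:**
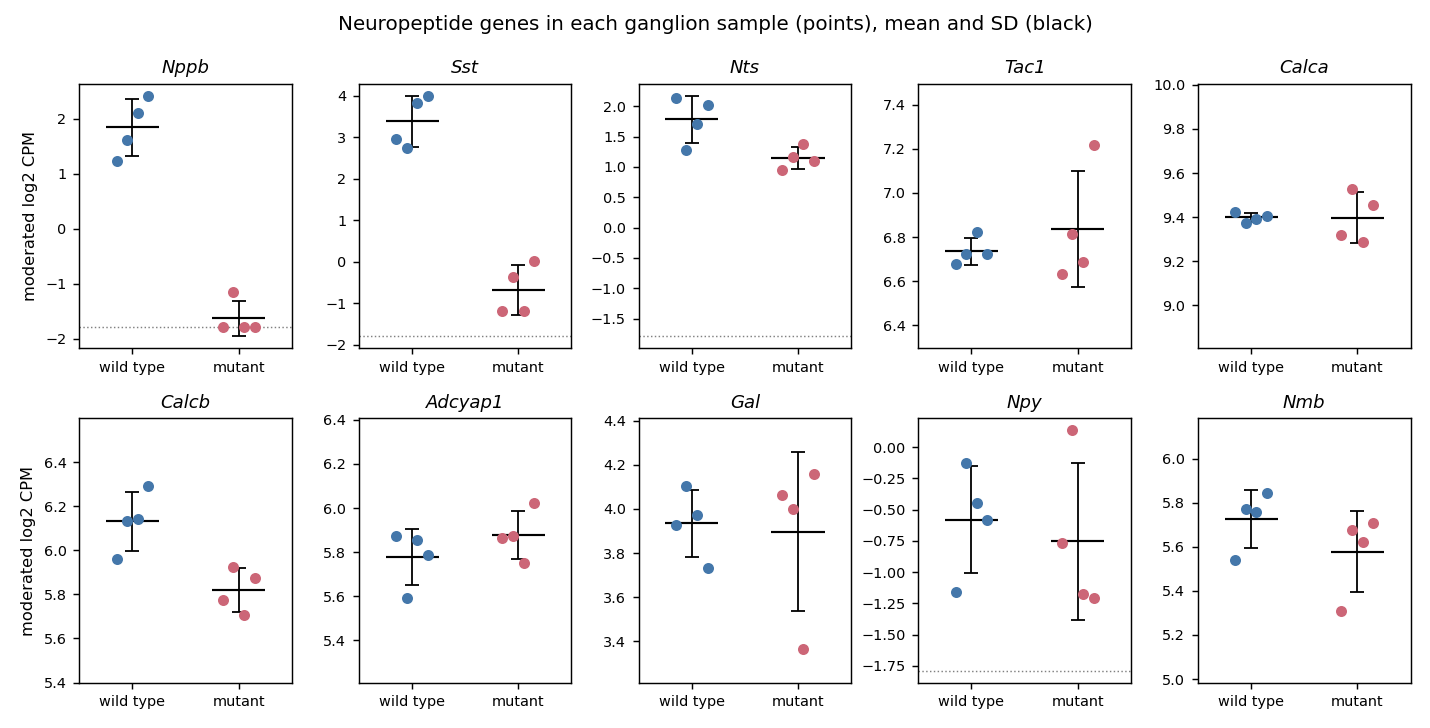
Moderated log2 CPM (vertical axes, each panel with its own range) of the 10 neuropeptide genes in 4 wild-type and 4 mutant samples; points are samples, black bars the mean and SD, and the dotted line the value of 0 reads. Groups are apart in Nppb, Sst and Calcb, 3 mutants lie on the line of 0 reads in Nppb, and mutant 4 lies above all others in Tac1.

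The balance of Nts and Sst within a sample was compared as a log2 ratio, the difference of their moderated log2 CPM. It was -0.81, -1.47, -2.11 and -1.97 in wild types 1, 3, 4 and 8, and 2.14, 1.53, 2.55 and 1.10 in mutants 1 to 4. Every wild type thus held more Sst than Nts reads and every mutant more Nts than Sst reads. The mean went from -1.59 ± 0.588 to 1.83 ± 0.645 (SD, n = 4), a difference of 3.42, and it was 2.53 with 1 CPM added to each gene. This difference is that of Nts less that of Sst, so it restates the fall of Sst on another scale and is given as a description.

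Calca and Calcb, the genes of the calcitonin gene-related peptides CGRP alpha and CGRP beta, lie close together on chromosome 7 and encode nearly the same mature peptide. CGRP from peptidergic nociceptors is a strong dilator of blood vessels. Their transcripts aligned at 82.7% identity over 434 bases, and the longest coding stretch that both hold letter for letter is 61 bases. The reads of 150 bases are longer than that stretch. How the authors divided reads between the genes is not given in the sources used here, so a small exchange of reads between them is uncertain. The shared stretch is shown in Calca (chromosome 7, 114632541 to 114634469, minus strand, across an intron) and Calcb (chromosome 7, 114721711 to 114722033, plus strand, across an intron) on GRCm38.
Calca and Calcb: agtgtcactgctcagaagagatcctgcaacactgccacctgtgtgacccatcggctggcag

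Calcb (ENSMUSG00000030666; chromosome 7, 114718643 to 114723365, plus strand) held 62.1, 69.9, 70.2 and 78.0 CPM in wild types 1, 3, 4 and 8, and 54.4, 60.5, 51.9 and 58.3 CPM in mutants 1 to 4. The highest mutant, number 2, lay just under the lowest wild type, number 1. The mean went from 70.1 ± 6.52 to 56.3 ± 3.86 CPM (SD, n = 4), which is 80.3% of the wild-type level, with 337 to 618 reads per library. The log2 difference was -0.31 (SE 0.079, 95% interval -0.48 to -0.14; limma adjusted p = 0.0329). The call was near the threshold and held in 12 of 20 alternatives, with an adjusted p between 0.00537 and 0.130 and a difference between -0.40 and -0.26. It was lost without wild type 3 (adjusted p 0.0766), wild type 4 (0.0522), wild type 8 (0.0817), mutant 1 (0.0838) or mutant 3 (0.0699), and without the mean-variance trend (0.130).

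Calca (ENSMUSG00000030669; chromosome 7, 114631478 to 114636357, minus strand), which also gives calcitonin by alternative splicing, was by far the most abundant member. Wild types 1, 3, 4 and 8 held 686, 663, 672 and 678 CPM and mutants 1 to 4 held 638, 739, 624 and 702 CPM. The means were 675 ± 9.56 and 676 ± 54.1 CPM (SD, n = 4), with a log2 difference of -0.0011 (95% interval -0.13 to 0.12; limma adjusted p = 0.995). The 4 wild types lay inside the range of the mutants, whose coefficient of variation was 8.0% against 1.42%. A change as large as that of Calcb lies outside the interval.

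The log2 ratio of Calcb to Calca was -3.46, -3.24, -3.25 and -3.11 in wild types 1, 3, 4 and 8 and -3.55, -3.60, -3.58 and -3.58 in mutants 1 to 4. All 4 mutants were below all wild types and lay close together, although their Calca levels did not. The mean ratio went from -3.27 ± 0.143 to -3.58 ± 0.024 (SD, n = 4), a difference of -0.31 (exact two-sided permutation p = 0.0286, the smallest that 4 against 4 samples allow, and 0.0429 after Benjamini-Hochberg adjustment over the 3 ratios computed). The adjusted value depends on the Nts to Sst ratio, which shares that smallest p and restates the fall of Sst. The difference in the ratio is that of Calcb less that of Calca, so it largely restates the fall of Calcb. Leaving out 1 sample at a time gave differences of -0.38 to -0.26 in the ratio. By the same rule as above, Chst15 was the gene most like Calcb (r 0.956; log2 difference -0.24, limma adjusted p = 0.0229), ahead of Hnrnpa1 (0.954) and Dok1 (0.944), and neither of those 2 passed the test. Among members, the deviations of Calcb from its group means had an r of 0.860 with those of Nppb and 0.749 with Sst. The r was 0.667 with Nmb, 0.570 with Npy and -0.194 with Nts, so the likeness was not particular to Nppb and Sst. In the mutants, the Nppb deviations rest on a single read, that of mutant 2. These r are descriptions over 8 samples.

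**Figure D2:**
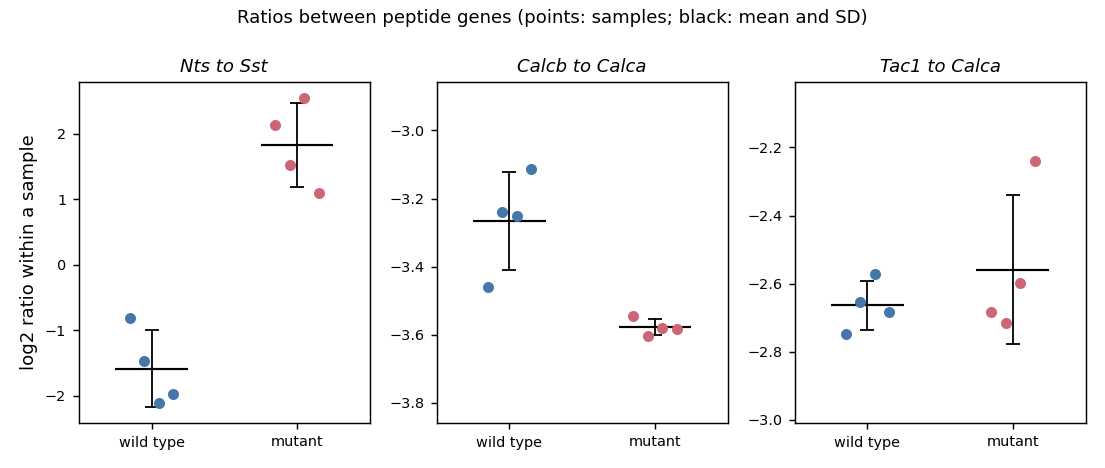
Log2 ratio of CPM within a sample (vertical axes) for Nts to Sst, Calcb to Calca and Tac1 to Calca in 4 wild-type and 4 mutant samples; points are samples and black bars the mean and SD. The groups do not overlap in the first pair of panels, and in the last 1 sample, mutant 4, lies apart.

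Tac1 (ENSMUSG00000061762; chromosome 6, 7554879 to 7565834, plus strand) encodes the precursor of substance P and neurokinin A, peptides of pain and neurogenic inflammation. It held 102, 105, 113 and 105 CPM in wild types 1, 3, 4 and 8, and 99.0, 112, 103 and 148 CPM in mutants 1 to 4. Mutant 4 stood above the other 7 samples, which overlapped. The means were 106 ± 4.59 and 116 ± 22.6 CPM (SD, n = 4), with a log2 difference of 0.10 (SE 0.101, 95% interval -0.11 to 0.32; limma adjusted p = 0.600) that became -0.022 without mutant 4. The log2 ratio of Tac1 to Calca averaged -2.66 ± 0.073 in the wild types and -2.56 ± 0.219 in the mutants (SD, n = 4; exact permutation p = 0.514, the same after adjustment), and the difference of 0.10 was -0.0015 without mutant 4. The genes most like Tac1 were Crtap (r 0.973), Copz1 (0.965) and Eno3 (0.961). Those most like Calca were Fam185a (0.988), Commd1 (0.956) and Rab24 (0.949). None of these 6 genes passed the test between the groups, with limma adjusted p-values of 0.710 to 0.957.

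Adcyap1 (ENSMUSG00000024256; chromosome 17, 93199017 to 93206537, plus strand) encodes PACAP, a peptide of nociceptors that raises cyclic AMP in its target cells. Wild types 1, 3, 4 and 8 held 58.3, 48.0, 57.6 and 54.9 CPM and mutants 1 to 4 held 58.0, 58.4, 53.6 and 64.6 CPM, with overlap. The log2 difference was 0.10 (SE 0.080, 95% interval -0.07 to 0.27; limma adjusted p = 0.510).

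Nmb (ENSMUSG00000025723; chromosome 7, 80902227 to 80905076, minus strand) encodes neuromedin B, a bombesin-like peptide of sensory neurons with roles in itch. It held 46.2, 54.4, 53.8 and 57.1 CPM in wild types 1, 3, 4 and 8 and 39.3, 50.8, 49.0 and 51.9 CPM in mutants 1 to 4. The groups overlapped, and sample 1 was the lowest in each. The log2 difference was -0.15 (SE 0.095, 95% interval -0.35 to 0.05; limma adjusted p = 0.389). Nmb overlaps Sec11a on the same strand, and 165 bases of an Nmb transcript are identical to Sec11a, so reads from that stretch could have been given to either gene.

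Gal (ENSMUSG00000024907; chromosome 19, 3409915 to 3414544, minus strand) encodes galanin. Wild types 1, 3, 4 and 8 held 14.9, 16.9, 15.4 and 13.01 CPM and mutants 1 to 4 held 16.4, 15.7, 10.01 and 17.6 CPM. Mutant 3 was the lowest and mutant 4 the highest of all, so the wild types lay inside the mutant range. The log2 difference was -0.04 (SE 0.158, 95% interval -0.38 to 0.30; limma adjusted p = 0.922), and it changed sign to 0.02 without wild type 3 and to 0.14 without mutant 3.

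Npy (ENSMUSG00000029819; chromosome 6, 49822710 to 49829507, plus strand) encodes neuropeptide Y and was barely detected. Wild types 1, 3, 4 and 8 held 1, 5, 3 and 3 reads, and mutants 1 to 4 held 2, 5, 1 and 1. The means were 0.402 ± 0.193 and 0.351 ± 0.313 CPM (SD, n = 4), where 3 reads were worth 0.376 to 0.485 CPM. The log2 difference of -0.18 had an exact two-sided permutation p of 0.6, and the ratio of summed reads, wild type over mutant, was 1.21 with an exact binomial interval of 0.470 to 3.26. A difference between the groups was not detectable at this depth. Of 9 genes known to respond to nerve injury, 7 were tested and 0 passed the adjusted p in limma, with a median log2 difference of 0.06. The 6 markers of sympathetic neurons, which also make Npy, summed to 0.752 to 2.54 CPM in the wild types and to 1.13 to 2.31 CPM in the mutants, with Phox2a at 0 reads in every library.

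**Figure D3:**
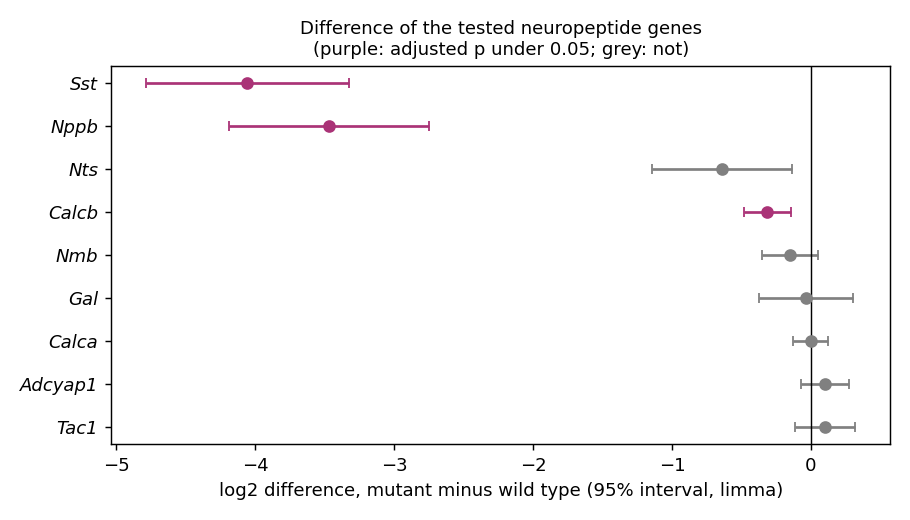
Log2 difference, mutant minus wild type (horizontal axis), with its 95% interval from limma for the 9 tested neuropeptide genes, 4 samples per group; purple marks an adjusted p under 0.05 and grey the rest. Sst at -4.06 and Nppb at -3.47 lie far to the left, Calcb lies at -0.31, and the interval of Nts from -1.15 to -0.13 is clear of 0 although its adjusted p is 0.132.

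Levels were compared between genes as CPM per kilobase of exon, with exon lengths from GENCODE M21. In wild type the order ran from Calca at 400.6 ± 5.68 through Nmb at 66.7 ± 5.88, Calcb at 55.4 ± 5.16, Tac1 at 31.3 ± 1.35 and Gal at 19.1 ± 2.04 to Sst at 15.01 ± 6.36 and Adcyap1 at 14.5 ± 1.25 (SD, n = 4). Nppb at 4.44 ± 1.70, Nts at 2.61 ± 0.717 and Npy at 0.710 ± 0.341 closed the order. Neighbours whose samples overlapped were Nmb and Calcb, Gal and Sst, Sst and Adcyap1, and Nppb and Nts. In the mutant the first 5 places were the same, with Calca at 401.2 ± 32.1, while Sst at 0.521 ± 0.382 stood ninth, below Npy at 0.620 ± 0.553, and Nppb at 0.052 ± 0.104 was last. There, the overlapping neighbours were Calcb and Tac1, Gal and Adcyap1, Nts and Npy, and Npy and Sst.

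**Figure D4:**
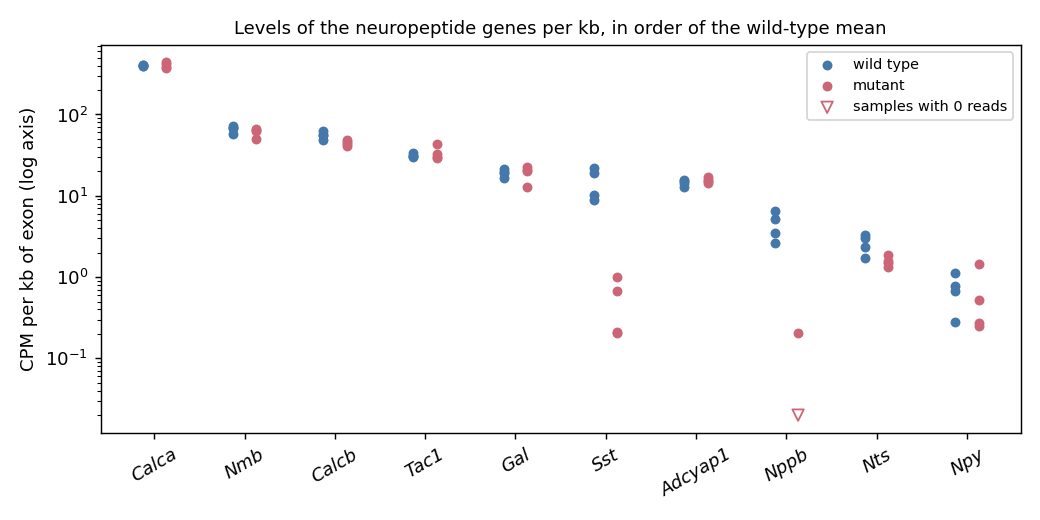
CPM per kilobase of exon (vertical log axis) of the 10 neuropeptide genes, ordered by the wild-type mean, in 4 wild-type and 4 mutant samples; points are samples and the open triangle stands for mutant samples with 0 reads. The pairs of groups sit at like heights except in Sst and Nppb, where the mutants drop from means of 15.01 to 0.521 and from 4.44 to 0.052.

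The pooled level of the peptide genes was much the same in both genotypes. The 10 members summed to 983, 969, 1003 and 1011 CPM in wild types 1, 3, 4 and 8 and to 907, 1040, 894 and 1046 CPM in mutants 1 to 4, and the groups overlapped. Calca alone made up 67.0% to 69.8% of that sum in wild type and 67.1% to 71.0% in the mutant.

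Other genes of peptide biology were counted from fixed lists. Over all tested genes 5.46% were called, 2.64% lower and 2.81% higher, and the counts of each list are to be read beside these shares. Of 47 other neuropeptide precursors, 46 were in the table and 6 had enough reads to be tested, and 0 passed (limma adjusted p). Their median log2 difference was 0.50, with a range of -0.27 to 0.61, against 0.066 over all tested genes. They include Penk, the precursor of enkephalins, at 3.75 ± 0.300 and 6.57 ± 3.70 CPM in wild type and mutant, and Cartpt, at 11.4 ± 2.82 and 15.7 ± 6.52 CPM (SD, n = 4), with mutant 4 the highest of all samples in both.

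Among 13 enzymes and helpers that cut and trim precursors, all tested, 1 rose and 1 fell, with a median log2 difference of 0.03. Cpe, carboxypeptidase E, which trims basic residues from peptide ends, fell from 558 ± 33.0 to 454 ± 41.5 CPM (SD, n = 4; log2 difference -0.30, SE 0.068; limma adjusted p = 0.0203). Pcsk6, a proprotein convertase, rose from 11.1 ± 2.50 to 16.3 ± 1.45 CPM (0.57, SE 0.148; adjusted p = 0.0382). The call of Cpe was lost without wild type 1 (adjusted p 0.0762), wild type 3 (0.0529) or the mean-variance trend (0.135). The call of Pcsk6 held in 9 of 20 alternatives and was lost without wild type 1, 3 or 8 or mutant 1, 2 or 4 (0.0584 to 0.117), after median centring (0.0503) or quantile normalization (0.0688), and without the mean-variance trend (0.119). The main granule convertases Pcsk1 and Pcsk2 did not pass, with log2 differences of 0.31 and -0.08.

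Of 16 dense-core granule proteins, all tested, 2 fell and 0 rose, with a median log2 difference of -0.01. Scg3, secretogranin III, which helps sort cargo into granules, fell from 931 ± 89.5 to 633 ± 55.8 CPM (SD, n = 4; log2 difference -0.56, SE 0.075; limma adjusted p = 0.000977), with the mutants at 574 to 693 CPM and the wild types at 864 CPM or more. It was called in all 20 alternatives. Scg2, secretogranin II, itself a granule cargo, fell from 266 ± 11.1 to 218 ± 24.4 CPM (-0.29, SE 0.073; adjusted p = 0.0306). That call held in 10 of 20 alternatives and was lost without wild type 1, 3, 4 or 8 or mutant 1 or 2 (0.0512 to 0.0728), after quantile normalization (0.0790) and without the mean-variance trend (0.152). Chga, chromogranin A, was at 199.9 ± 7.82 and 200.8 ± 8.75 CPM.

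Of 29 receptor genes for the member peptides, 28 were in the table and 22 were tested. Of the tested ones 1 fell and 0 rose, where 5.46% of all tested genes were called, and their median log2 difference was 0.16. Npy2r, a receptor for neuropeptide Y and peptide YY that sits on sensory neurons, fell from 32.3 ± 1.77 to 12.3 ± 0.760 CPM (SD, n = 4; log2 difference -1.38, SE 0.093; limma adjusted p = 1.27e-06), and was called in all 20 alternatives. No other receptor passed. The receptor of brain natriuretic peptide, Npr1, differed by 0.42 (95% interval -0.04 to 0.88), the somatostatin receptor Sstr2 by 0.38 (-0.04 to 0.80), and the galanin receptor Galr1 by -0.42 (-0.79 to -0.05; adjusted p = 0.174). The substance P receptor Tacr1 and the neuromedin B receptor Nmbr had too few reads to be tested.

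Of 10 enzymes that degrade peptides outside the cell or within it, all tested, 1 rose and 0 fell, with a median log2 difference of 0.21. Mme, neprilysin, a membrane protease that cleaves substance P, natriuretic peptides and other peptides, rose from 16.1 ± 2.47 to 26.8 ± 1.98 CPM (SD, n = 4; log2 difference 0.74, SE 0.113; limma adjusted p = 0.00210), with the groups apart, and was called in all 20 alternatives.

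**Figure D5:**
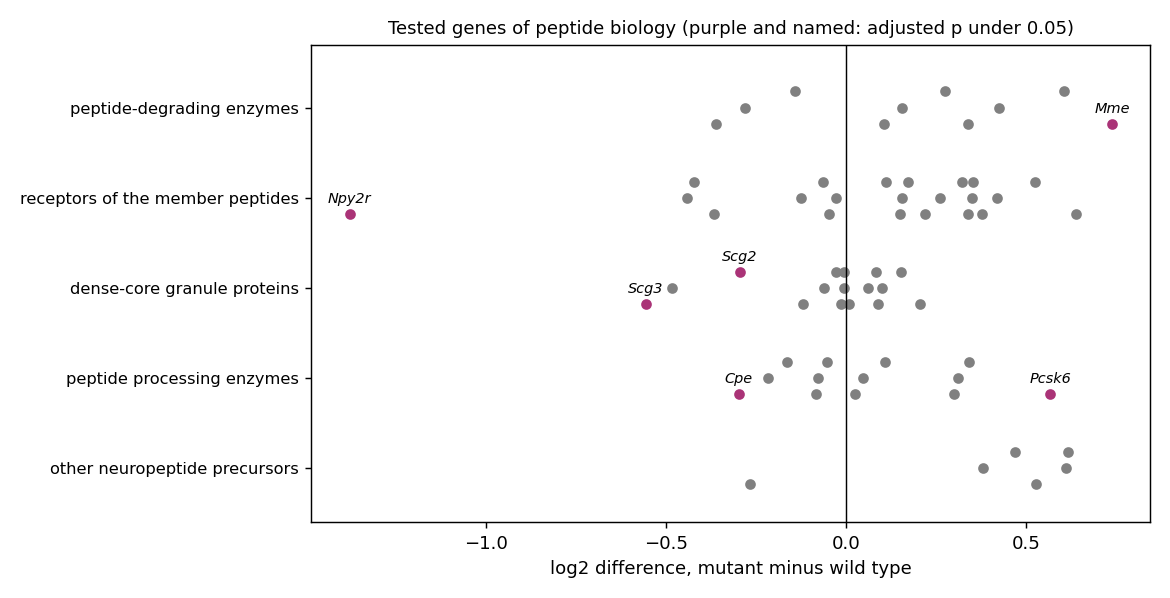
Log2 difference, mutant minus wild type (horizontal axis), of each tested gene in 5 lists of peptide biology (rows), 4 samples per group; purple points with names have an adjusted p under 0.05 in limma and grey points do not. Npy2r at -1.38 lies far to the left, Scg3, Scg2 and Cpe are the other named falls, and Mme and Pcsk6 the named rises.

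Libraries held 6183622 to 7983826 reads, so that 1 read was worth 0.125 to 0.162 CPM. Tmem184b itself was at 164 to 182 CPM in the wild types and at 5.24 to 8.29 CPM in the mutants (log2 difference -4.64, SE 0.113; limma adjusted p = 2.57e-12). With the samples aligned at their medians, 706 of all tested genes were called lower and 204 higher, against 397 and 423 as deposited, and the calls of the members were the same. General markers of sensory neurons summed to 8453 to 9293 CPM in the wild types and to 8452 to 9082 CPM in the mutants, with 1 of 9 lower, Avil (-0.22, a call lost without wild type 1 or 3 or mutant 1 or 2, adjusted p 0.0507 to 0.0657, after quantile normalization, 0.0929, or without the trend, 0.117). Other markers of peptidergic nociceptors, 7 tested and 0 called in limma, had a median log2 difference of -0.01 and sums of 599 to 671 and 577 to 650 CPM. The lists of satellite glia, Schwann cells, macrophages and fibroblasts, with 6, 6, 5 and 5 genes tested, each had 1 called gene, higher in the mutant. These were Glul at 0.49, Ncmap at 0.69, Cd163 at 0.80 and Dcn at 0.60, where 2.81% of all tested genes were called higher. The lowest log2 differences in the lists were -0.11, -0.06, -0.19 and 0.07, and the medians 0.23, 0.24, 0.41 and 0.34. The Cd163 call was lost without wild type 8 or mutant 1 or 4 (0.0552 to 0.0727). Without the mean-variance trend Glul, Cd163 and Dcn lost their calls (adjusted p 0.1058 to 0.1102), and Dcn lost it with a robust trend as well (0.0606). Their summed levels were 1820 to 2220 against 1999 to 2806 CPM, 2232 to 2931 against 2596 to 3123, 35.9 to 55.3 against 49.7 to 78.4, and 524 to 963 against 706 to 1012. The lists of endothelial, fat and spinal cord cells had 0 calls. Of 5 skeletal muscle markers 4 were tested and 0 called, with sums of 2.86 to 31.4 CPM in the wild types and of 9.41 to 149 CPM in the mutants. The 4 log2 differences were all positive, 1.60 to 2.45 with a median of 1.86, and Myh4 was nearest a call (limma adjusted p = 0.0515). Mutant 4, the highest of all in these muscle markers, was also the highest in Tac1, Adcyap1 and Gal and in the precursors Penk, at 11.6 CPM, and Cartpt, at 22.7 CPM, and any part of this in their values was not tested.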

How the data were processed

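The values deposited by the authors are moderated log2 CPM, that is, the log2 of reads scaled to the library total after a small prior count was added, per the file's name and values. The table has 41422 lines and 40800 distinct gene identifiers. The submitters' processing notes name Salmon 0.11.1, DESeq2 and the mm9 build, with no role for any of them, and per the labels' protocols the reads were single-end. Whether counting used the strand is not given in the sources used here. The value of 0 reads, -1.79, was subtracted as a linear CPM. All values (100%) then came out as whole reads (tolerance 0.1 reads), with a prior count of 2, and the CPM and reads given here were recovered in this way.

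Mutant was compared with wild type in limma 3.58.1 (R 4.3.3; two-sided, no covariate, lmFit and eBayes with its trend option) on the deposited log2 values. Genes with log2 CPM above 0 in at least 4 of 8 samples were tested (15030), with Benjamini-Hochberg adjustment over all of them and an adjusted p under 0.05 as a call. Ratios and Npy were compared by exact permutation over the 70 assignments of the samples. The replicates are separate mice, and intervals on reads cover counting error only.

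Every member is named, and of the other lists the genes with a call. Some genes without a call are named as examples, namely receptors of members, Penk, Cartpt, Pcsk1, Pcsk2, Chga and Phox2a. The genes most like a member are the 3 with the highest Pearson r among tested genes with a mean log2 CPM of at least 1. The members and lists were chosen with earlier results of these data known. The procedure was tested on simulated reads. Alternatives were another or no filter, leaving out each sample, a replicate block, Xist as a covariate, weighted samples, eBayes without the trend or with a robust one, quantile normalization, centring on medians, and 1 CPM added before log2. A weighted fit (voom) of the recovered reads was added after the data were seen. Coordinates and exon lengths are from GENCODE M21 (GRCm38), which is not the build named in the notes, and serve only to place genes. Similarity was measured with blastn 2.17.0.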

Additional observations from a re-analysis of the deposited data

Results flagged for a closer look

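In Nppb, mutant 2 was at -1.15 log2 CPM and the other 3 mutants were at the value of 0 reads. The sample was set apart from its group by a single read. Of 26 groups of values examined in this way, 1 had such a sample, where chance gives 1.3.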

How the results depend on the processing

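Sst and Nppb were called, and Nts was not, in all 20 alternatives. Except the fit with no filter, these kept the filter, or a stricter one, that Nppb and Sst passed wholly or mainly through wild types. Calcb differed by -0.31 without the mean-variance trend (adjusted p 0.130), by -0.29 with a replicate block on the samples numbered 1, 3 and 4 (0.0773), by -0.29 in those 6 samples without the block (0.0861), and by -0.37 to -0.26 with 1 sample left out, and the cause of the lost calls was not tested. The calls of Pcsk6 (0.0598), Scg2 (0.0577) and Avil (0.0897) were also lost under the block, and in the 6 samples without it (0.1235, 0.116 and 0.0935). No other member's call changed under the block, which gave 326 higher and 345 lower genes. Deviations of samples with the same number correlated at 0.081, 0.041 and 0.058, so the numbers were not taken as pairs. The sign of Calca, which was near 0, turned under quantile normalization (0.045), sample weights (0.0045) and Xist as a covariate (0.0077), and ranged from -0.045 to 0.036 with 1 sample left out. In the same way Gal ranged from -0.13 to 0.14, Tac1 from -0.022 to 0.17, and the log2 ratio of Tac1 to Calca from -0.0015 to 0.16. Over all tested genes, 204 were higher after median centring, 271 after quantile normalization, 67 without the trend, 180 in the 6 samples and 174 to 572 with 1 sample left out. The lower genes numbered 706 after median centring, 75 without the trend and 230 to 427 with 1 sample left out. Npy was not fitted in limma outside the fit with no filter, and the ratios had no test in the block or with a sample left out.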
